A study of Mus musculus with 7 samples.

Results

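Of 10756 MyoD peaks called in mouse myotubes after 2 days of differentiation, 389 lay at genes whose transcript level was higher in the myotubes than in growing myoblasts. A peak was counted where its summit lay in, or within 10 kb of, the locus of such a gene on chromosomes 1 to 19. The locus had to be at most 200 kb long and to belong to 1 row of the expression table. The gene had to reach 5 FPKM (fragments for each kilobase of transcript, scaled for depth) in myotubes and a ratio of 2.5, taken as (myotube FPKM + 1) over (myoblast FPKM + 1). Of 849 genes that met both expression limits, 427 met the locus limits and are called rising genes here. Of the others, 368 shared their locus with another row, 16 had a longer locus and 38 lay on another chromosome or contig. The 389 peaks belonged to 213 of the 427 rising genes in 400 pairs of peak and gene, since 11 peaks lay at 2 rising genes.

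Satellite cells of mice 4 to 6 weeks old had been sorted and grown as primary myoblasts, and confluent cultures were placed for 48 hours in medium with 5% horse serum. Total RNA came from growing myoblasts and from myotubes, both carrying an empty retroviral vector, and chromatin immunoprecipitation (ChIP) located MyoD in myotubes at day 2. The MyoD sample was labelled as taken over from an earlier deposit, and no label gives it a vector. The antibodies listed for the series do not include one against MyoD, and the sources used here give no strain for the mice. Of the 7 samples, 4 ChIP samples of histones were not analysed here. The MyoD list rested on 4049890 unique ChIP tags. Each group held 1 sample, with 1 expression value per gene and condition and 1 peak list, so no difference below was tested between samples. Peaks and genes of 1 library are not replicates, and the 95% Clopper-Pearson intervals given for shares cover counting error only.

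MyoD is a basic helix-loop-helix factor that pairs with E proteins and binds the E-box, a short site of the form CANNTG (N for any base). It acts at enhancers and promoters of genes for differentiation, the contractile apparatus and fusion, partly together with myogenin and MEF2 factors. MyoD also occupies many sites at genes that do not change during differentiation, so its presence near a gene does not by itself tell how the gene is expressed.

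Promoters are shown for rising genes with a tag-rich peak close to the end of the locus where the gene starts, because there the peak and a known sequence could be set side by side. They are the 250 bases before the start in RefSeq, in GRCm38.p6 coordinates, given 5′ to 3′ on the strand of the gene. Capitals mark E-boxes (CANNTG, on both strands, which is the same search). The peaks are in mm9 coordinates, so the tables were joined by gene symbol and only the distance of the summit from the mm9 locus end is given beside each sequence.
Pygm, chr19:6384158-6384407, plus strand: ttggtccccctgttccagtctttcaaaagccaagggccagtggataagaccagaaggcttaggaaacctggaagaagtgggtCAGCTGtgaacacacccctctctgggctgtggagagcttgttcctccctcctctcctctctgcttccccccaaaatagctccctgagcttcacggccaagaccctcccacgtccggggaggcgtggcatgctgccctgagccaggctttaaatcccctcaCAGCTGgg
Adssl1, chr12:112619797-112620046, plus strand: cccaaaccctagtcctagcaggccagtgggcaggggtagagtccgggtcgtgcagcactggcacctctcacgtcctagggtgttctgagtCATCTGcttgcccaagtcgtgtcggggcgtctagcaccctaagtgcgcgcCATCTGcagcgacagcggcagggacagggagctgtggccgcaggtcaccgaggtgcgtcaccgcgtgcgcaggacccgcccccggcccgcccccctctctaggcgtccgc
Aknad1, chr3:108739408-108739657, plus strand: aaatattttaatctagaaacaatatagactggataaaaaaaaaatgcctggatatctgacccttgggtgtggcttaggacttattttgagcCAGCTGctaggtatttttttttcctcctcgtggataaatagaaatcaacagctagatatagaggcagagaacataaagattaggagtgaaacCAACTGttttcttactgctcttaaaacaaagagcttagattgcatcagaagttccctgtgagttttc
Cav3, chr6:112459255-112459504, plus strand: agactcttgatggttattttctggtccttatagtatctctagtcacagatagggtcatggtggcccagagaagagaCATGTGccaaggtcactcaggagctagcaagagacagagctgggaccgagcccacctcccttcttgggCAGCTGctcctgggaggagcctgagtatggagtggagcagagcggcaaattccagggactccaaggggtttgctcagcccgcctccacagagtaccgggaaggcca
Gatm, chr2:122611278-122611527, minus strand: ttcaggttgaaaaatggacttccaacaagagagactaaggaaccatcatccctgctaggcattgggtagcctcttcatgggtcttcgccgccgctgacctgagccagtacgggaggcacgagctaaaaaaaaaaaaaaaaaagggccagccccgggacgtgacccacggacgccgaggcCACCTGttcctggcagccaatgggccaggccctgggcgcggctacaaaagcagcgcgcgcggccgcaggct
Acsl1, chr8:46470787-46471036, plus strand: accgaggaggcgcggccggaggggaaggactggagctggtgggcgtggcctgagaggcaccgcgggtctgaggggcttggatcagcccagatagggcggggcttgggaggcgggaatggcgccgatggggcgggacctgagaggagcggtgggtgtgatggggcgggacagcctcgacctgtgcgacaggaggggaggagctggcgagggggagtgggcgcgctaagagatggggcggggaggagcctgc

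Pygm encodes the glycogen phosphorylase of muscle, and its peak of 57 tags (ChIP reads counted in the peak by the authors' caller, as are all tags below) had its summit 54 bp inside the start end of the locus. The first base of its E-boxes lay 168 and 8 bases before the start. Both read CAGCTG. A further one 39 bases past the start read CATCTG. Cav3, the muscle caveolin, had a peak of 41 tags with the summit 172 bp inside, and E-boxes 174 (CATGTG) and 106 (CAGCTG) bases before the start. At Adssl1, an enzyme of the purine nucleotide cycle in muscle, the start peak held 52 tags with the summit 30 bp inside, and both E-boxes, 160 and 110 bases before the start, read CATCTG. Aknad1 had a CAGCTG 159 and a CAACTG 67 bases before the start, and the summit of its 45-tag peak lay 388 bp before the start end. Gatm, which makes the creatine precursor guanidinoacetate, had a CACCTG 71 bases before the start and a 36-tag peak whose summit lay 489 bp inside. Acsl1, an acyl-CoA synthetase, is shown as a contrast: its peak of 37 tags had the summit 65 bp inside, and the 300 bases from 250 before to 50 after the start held no CANNTG. Tmem109, with 54 tags and the summit 871 bp inside, held none in that window either. The false discovery rate of the start peak, from the authors' peak caller, was 2.58% at Aknad1 and 2.91% at Acsl1. It was 6.43% at Pygm, 6.49% at Gatm, 7.84% at Adssl1, 7.88% at Cav3 and 14.6% at Tmem109. For these genes the length of the mm9 locus and that of the RefSeq gene differed by 0 to 256 bp. For Ppfia4, the gene with the most tags in a start peak (69), the lengths differed by 11827 bp, so its promoter is not shown. No match in these windows says only that the letters are not there, and the sequence under the peaks themselves was not used here.

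Over the 42 rising genes with a summit within 1 kb of the start end and a promoter in the table, 30 promoters of 300 bases (71.4%) held a CANNTG, beside 72.1% of all 27025 promoters of the table. A CANNTG was in 73.7% of rising genes with peaks elsewhere, 75.9% of those without a peak and 68.0% of unchanged genes with a start peak. The E-box CAGCTG was in 13 of the 42 (31.0%, interval 17.6 to 47.1%), beside 16.1% of all promoters. For rising genes with peaks elsewhere it was in 31 of 114 (27.2%), for rising genes without a peak in 33 of 141 (23.4%), and for 244 unchanged genes with a start peak in 54 (22.1%). The E-box CAGGTG, whose complementary strand reads CACCTG, was in 16.7% of the 42 and in 20.0% of all. It was in 21.1% of rising genes with peaks elsewhere, 26.2% of those without a peak and 17.6% of unchanged genes with a start peak. CATTCC, the core of the MCAT site of TEAD factors, was in 13 of the 42 (31.0%, interval 17.6 to 47.1%), in 14.7% of all promoters and in 9.02% of unchanged genes with a start peak. For rising genes with peaks elsewhere it was in 22.8% (interval 15.5 to 31.6%), and for rising genes without a peak in 14.2%. The MEF2 box was in 3 of the 42 (7.14%, interval 1.498 to 19.48%), in 2.63% of rising genes with peaks elsewhere, in 3.55% of those without a peak and in 0.570% of all. The SRF CArG box was in 0 of the 42, in 4.96% of rising genes without a peak and in 1.59% of all. TATAAA was in 16.7% of the 42 and in 14.2% of all. It was in 9.65% of rising genes with peaks elsewhere, 22.7% of those without a peak and 5.33% of unchanged genes with a start peak. All were searched on both strands, and matches to the more specific E-box motifs are counted in the share for any E-box as well. Base composition differed as well, with a median GC content of 61.3% for the 42 and 52.7% over the table. It was 62.3% for unchanged genes with a start peak, of which 0.820% held a MEF2 box. For 1178 unchanged genes without a peak it was 60.7%. These held CAGCTG in 11.5%, CATTCC in 11.4%, TATAAA in 6.62% and a MEF2 box in 0%. The part of base composition in these shares was not tested.

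The peaks were chosen by the FPKM values of the genes in both conditions, which are given as a description. Among the 213 rising genes with a peak the ratio ran from 2.51 to 166 with a median of 5.16, and myotube levels ran from 5.45 to 33258 FPKM with a median of 73.3. The authors' deposited table called 198 of the 213 higher in myotubes, beside 6.52% of all tested genes, and since the rule used the same contrast nothing is read from that count. The standard error of the log2 fold change, taken from the fold change and test statistic in the authors' deposited table, had a median of 0.61 over the 207 of these genes for which it could be had, with a range of 0.24 to 1.54. In bulk RNA, fewer cells of a type and less RNA per cell cannot be told apart. The 427 rising genes were 2.07% of the 20637 genes under the same locus limits. Just inside the ratio limit stood Sesn1 at 2.51, Pbxip1 at 2.55 and Thop1 at 2.55, with largest peaks of 15, 22 and 38 tags. Just outside it stood Ccdc23 at 2.49, Wdtc1 at 2.48 and Inpp5k at 2.48, with peaks of 51, 8 and 49 tags. The peak of 49 tags near Inpp5k also counted among the peaks at rising genes, through its neighbour Myo1c at a ratio of 2.69. At the limit on myotube level, Grip2, Aknad1 and 4930429F24Rik were just inside at 5.45, 5.46 and 5.55 FPKM with largest peaks of 10, 45 and 9 tags, and ORF63, Gm15440 and Prickle1 just outside at 4.57, 4.52 and 4.46 FPKM with 15, 8 and 17 tags.

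MyoD peaks were found at 49.9% of the rising genes (213 of 427, interval 45.0 to 54.7%), beside 17.6% of all genes under the locus limits. The same count was made for 3 other classes of genes. Falling genes, which met the mirrored limits (at least 5 FPKM in myoblasts and the inverse ratio), had a peak in 310 of 1131 cases (27.4%, 24.8 to 30.1%). Unchanged genes, at 5 FPKM or more in either condition with a ratio within 1.5 in either direction, had one in 971 of 3021 (32.1%, 30.5 to 33.8%). Silent genes, under 0.5 FPKM in both conditions, had one in 929 of 11737 (7.92%, 7.43 to 8.42%). A peak could count for several classes where loci lay close together. More than 1 peak was found at 96 rising genes (22.5%), against 8.93% of falling and 11.0% of unchanged genes. At least 4 were found at 21 rising genes (4.92%), against 1.33% and 1.39%. Summits numbered 2.06 per 100 kb of searched sequence at rising genes, 1.15 at unchanged, 0.868 at falling and 0.317 at silent genes.

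**Figure D1:**
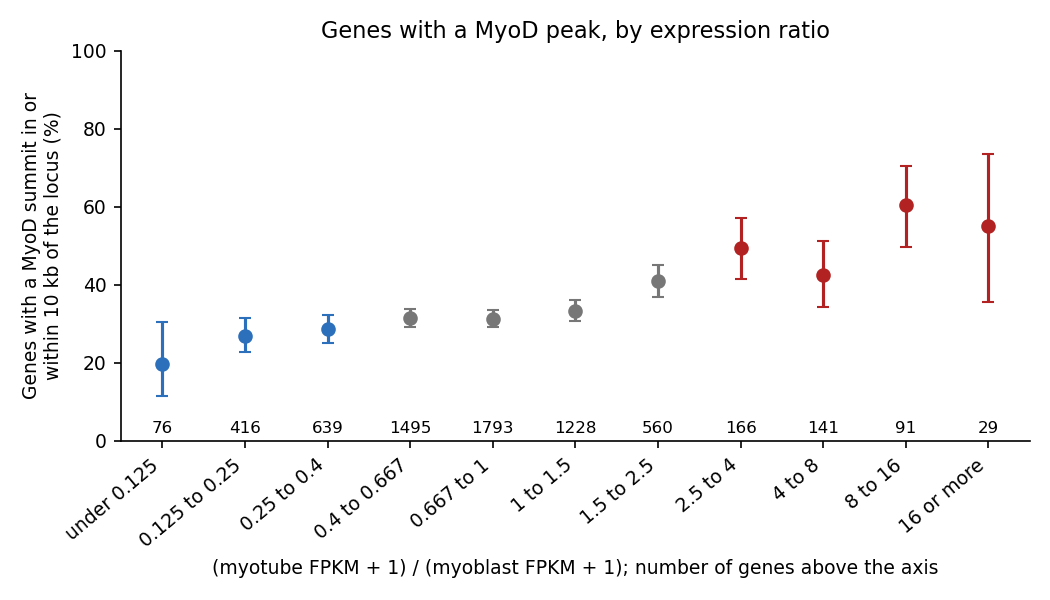
Share of genes with a MyoD summit in or within 10 kb of the locus (y axis, percent) for 6634 genes that reached 5 FPKM in either condition, by the ratio of myotube to myoblast FPKM, each with 1 added (x axis). Points are shares (red for ratios of rising genes, blue for those of falling genes, grey between). Bars are 95% Clopper-Pearson intervals and numbers above the axis are genes. The share was 19.7% at ratios under 0.125, where the median locus was 143 bp, and 60.4% at ratios of 8 to 16.

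Across all 6634 genes at 5 FPKM or more in either condition, the share with a peak stood at 19.7% for ratios under 0.125, at 31.3% from 0.667 to 1 and at 33.3% from 1 to 1.5. From 1.5 to 2.5, just below the limit of the rule, it was 40.9% (interval 36.8 to 45.1%). Among rising genes it was 49.4% at ratios of 2.5 to 4, 42.6% at 4 to 8, 60.4% at 8 to 16 and 55.2% at 16 or more, so that it did not climb in every step. Both end classes held very short loci, and the median locus was 143 bp at ratios under 0.125 and 3595 bp at 16 or more. Leaving out loci under 300 bp was an alternative chosen after seeing the data. The share was then 26.47% (9 of 34) at ratios under 0.125 and 75.0% (15 of 20) at 16 or more. The median tags of the peaks were 15 at ratios of 0.667 to 1, 18 at 1.5 to 2.5, 22.5 at 8 to 16 and 29 at 16 or more. Across the 427 rising genes the ratio and the number of peaks were weakly related, with Spearman's rho of 0.09 and Pearson's r of 0.07 on the log2 ratio. Across the 213 with a peak, rho was 0.12 between the ratio and the tags of the largest peak and 0.29 between myotube FPKM and those tags. These coefficients are across genes of 1 library, which share its depth and are not independent replicates.

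A longer locus is a larger target for a summit. Across rising genes the number of peaks and locus length had a rho of 0.41. Rising genes had a higher share than unchanged genes in each of 6 length classes. Below 5 kb the shares were 26.2% (34 of 130) and 14.5%, from 10 to 20 kb 54.7% (47 of 86) and 35.4%, and from 100 to 200 kb 92.9% (26 of 28) and 71.4%. In falling genes the same classes had 14.3%, 25.2% and 56.9%. From 100 to 200 kb the intervals of rising genes (76.5 to 99.1%) and unchanged genes (62.1 to 79.6%) overlapped. Shares within classes of myotube level were 36.8% of 68 rising genes at 5 to 10 FPKM, against 27.1% of unchanged genes at that level with overlapping intervals. At 100 FPKM or more they were 64.7% of 136 rising genes (56.1 to 72.7%) against 28.4% of 559 unchanged genes (24.7 to 32.4%). Intervals of rising and unchanged genes also overlapped at 10 to 20 FPKM (37.7% and 30.7%) and at 20 to 50 FPKM (42.0% and 37.6%). At 50 to 100 FPKM the shares were 54.1% of rising genes (42.1 to 65.7%) and 33.7% of unchanged genes (29.6 to 38.1%). Among rising genes the share thus stood higher at higher myotube levels, while among unchanged genes it was highest at 20 to 50 FPKM.

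**Figure D2:**
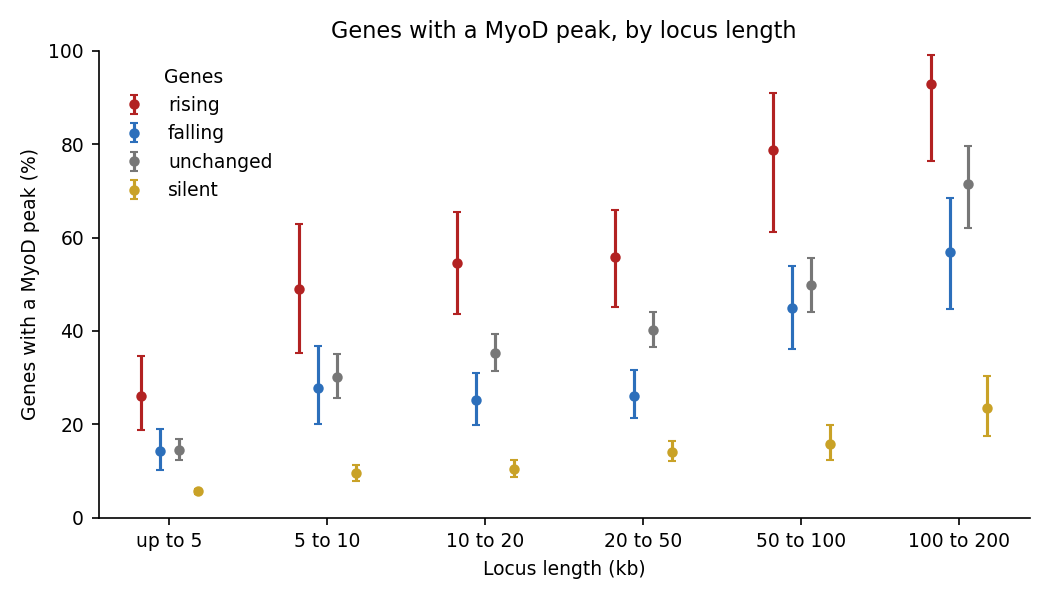
Share of genes with a MyoD peak (y axis, percent) by locus length in kb (x axis) for rising, falling, unchanged and silent genes. Points are shares and bars 95% Clopper-Pearson intervals; rising genes stood above the other 3 classes in every length class, from 26.2% up to 5 kb to 92.9% at 100 to 200 kb.

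Tags per peak are a measure the rule did not use. The 389 peaks held 7 to 212 tags with a median of 22 (interval of the median from order statistics 20 to 23), and the upper quartile was 32. The median was 14 over all 10756 peaks, 14 at falling genes, 16 at unchanged genes (15 to 16) and 13 at silent genes. Peaks at the floor of the list, with 7 to 10 tags, made up 17.5% of those at rising genes and 34.1% of all. Peaks of 31 to 50 tags made up 23.7% of those at rising genes, 9.62% at falling and 10.4% at unchanged genes. Of the 564 peaks of the list with 40 tags or more (5.24% of all), 54 were at rising genes. That is 13.9% of the 389 (interval 10.6 to 17.7%) and 9.57% of the 564, against 6.08% of the peaks at unchanged genes. In all, the 389 peaks were 3.62% of the list and held 5.16% of its tags.

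**Figure D3:**
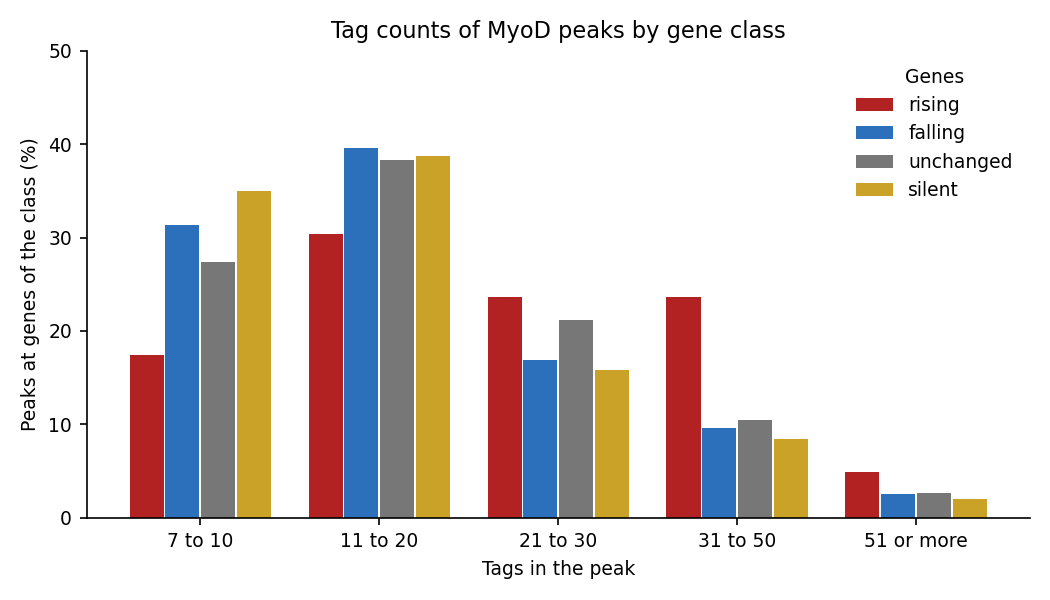
Peaks at rising, falling, unchanged and silent genes by the number of tags in the peak (x axis), as a percentage of the peaks of each class (y axis). Peaks at rising genes were the fewest by share at 7 to 10 tags (17.5%) and the most at 31 to 50 tags (23.7%).

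Fold enrichment, the authors' value for the height of a peak over its regional background, did not follow the tags. Its median at rising genes was 12.9 (interval 11.99 to 13.89), lower than the 15.3 of all peaks and near the 13.9 at unchanged and 14.4 at falling genes. Among the 389 peaks, tags and fold enrichment had a rho of -0.31, and tags and peak width a rho of 0.81. Across all peaks these were -0.26 and 0.79. The peaks at rising genes were wide, with a median of 553 bp against 426 bp over the list. Within ranges of tags the order of the classes varied. At 21 to 30 tags, median fold enrichment was 11.8 at rising, 11.0 at falling and 11.4 at unchanged genes. At 31 to 50 tags it was 10.97, 13.3 and 11.1, and at 51 tags or more, with 19 peaks at rising genes, 8.99, 12.7 and 14.1. Of the 389 peaks, 88 had a false discovery rate from the authors' peak caller of 5% or less (22.6%, 18.6 to 27.1%), beside 19.4% of all peaks, 16.6% at unchanged and 15.1% at falling genes. At 21 to 30 tags these shares were 27.2%, 35.4%, 25.3% and 28.4% for rising genes, all peaks, unchanged and falling genes. Rising genes and all peaks had 7.35% and 5.23% at 7 to 10 tags, and 8.47% and 14.9% at 11 to 20. They had 44.6% and 53.4% at 31 to 50 tags, and 36.8% and 56.5% at 51 or more. The higher share at rising genes over all tags was thus not found within ranges above 10 tags. Tags, width and fold enrichment of a peak all come from the same ChIP library.

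Where the summits lay could be oriented for the 297 rising genes whose strand was given by the promoter table, 156 of them with a peak. Of these 297, 28.3% had a summit inside the locus more than 1 kb from either end (interval 23.2 to 33.8%), against 17.1% of 1942 unchanged genes. Upstream, from 1 to 10 kb before the start, the shares were 16.5% (12.5 to 21.2%) and 7.52%. Within 1 kb of the start they were 14.1% (10.4 to 18.6%) and 12.6% (11.1 to 14.1%), and from 1 to 10 kb past the far end 10.8% (7.49 to 14.9%) and 10.8% (9.42 to 12.2%), with overlapping intervals at both places. Falling genes had 15.2% inside, 6.14% upstream and 6.65% at the start. Counted by pairs, 14.5% of 296 oriented pairs at rising genes lay within 1 kb of the start, against 20.9% of 1210 at unchanged genes. Of all 400 pairs at rising genes, oriented or not, 236 summits (59.0%) lay inside the locus.

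**Figure D4:**
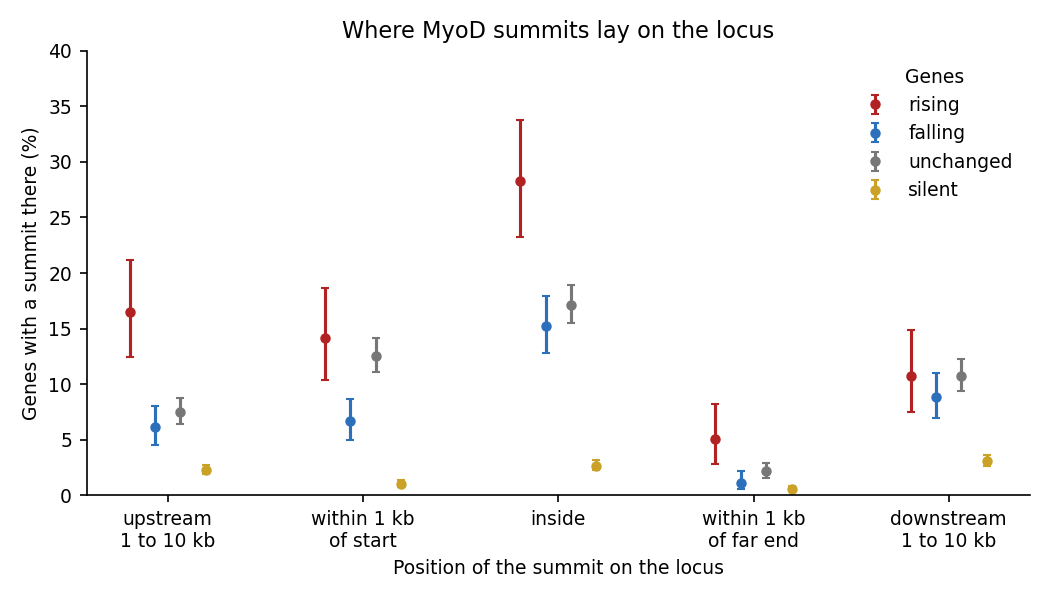
Share of genes with at least 1 MyoD summit (y axis, percent) at each place on the locus (x axis) for genes with a known strand, by class. Points are shares and bars 95% Clopper-Pearson intervals; rising and unchanged genes stood at 28.3% and 17.1% inside the locus and at 10.8% each downstream.

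The tags at rising genes were also compared place by place. Inside the locus, the median was 20 tags (17 to 23) at rising, 14 (13 to 15) at unchanged and 13 at falling genes. Upstream it was 23 (19 to 29), 16 (14 to 18) and 16. Within 1 kb of the start it was 25 (22 to 29) at rising genes, 21 (19 to 22) at unchanged and 18 at falling genes. Downstream, at 19.5 and 17 tags, the intervals of rising and unchanged genes overlapped. Neighbouring summits of the same rising gene lay a median of 8.66 kb apart, and 36 of 187 gaps (19.3%) were at most 2 kb. That share was 16.8% at unchanged, 17.9% at falling and 24.9% at silent genes, where the median gap was shorter, at 6.87 kb.

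The peak with the most tags of the 389 was at chr1:136089489-136093091 (mm9), with 212 tags over 3603 bp. Its summit lay 6107 bp past the far end of Chi3l1, a chitinase-like secreted glycoprotein that stood at 5.53 FPKM in myoblasts and 135 in myotubes. The same summit lay in or near the locus of Mybph, a myosin binding protein at 105 and 2449 FPKM, whose locus holds 2 rows of the table and so was outside the rule. Nctc1 came next with 110 tags at chr7:149736005-149738451, inside its locus. It is a noncoding transcript of the Igf2 and H19 region, at 1.27 and 6.94 FPKM. Iffo1, an intermediate filament family orphan, held peaks of 93 and 67 tags at chr6:125106589-125107850 and chr6:125098787-125099977, and 6 peaks with 315 tags in all. Its level was 101 and 392 FPKM, the authors' deposited table marks its test as failed, and Gapdh lay within 10 kb of the first of these summits and Nop2 of the second. Neurl1a, a ubiquitin ligase related to Drosophila neuralized, held 76 and 63 tags at chr19:47296498-47297660 and chr19:47323368-47324761, 43906 and 70558 bp past its start, and stood at 14.6 and 139 FPKM.

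Ppfia4, a liprin, held 69 tags at chr1:136228528-136230068, 229 bp before its start, and 4 peaks in all, with levels of 3.42 and 44.0 FPKM. Tead4, a TEAD transcription factor of muscle differentiation, held 65 tags at chr6:128186399-128187224. Its 6 peaks, all inside the 76.5 kb locus, held 14, 65, 20, 31, 35 and 40 tags from left to right, and Tead4 stood at 15.2 FPKM in myoblasts and 113 in myotubes. The peak 1731 bp before Adssl1, at chr12:113856082-113857059, also held 65 tags and was followed by the start peak of 52 tags described with the promoters. Ehbp1l1 held 63 tags at chr19:5724075-5725851 with levels of 32.0 and 120 FPKM. Of the 10 peaks with the most tags, those of Chi3l1, Neurl1a and Tead4 had a false discovery rate of at most 5%. The others ran from 5.33% at Iffo1 to 13.99% at Nctc1. Apart from rising genes, another row of the table at 1 FPKM or more lay within 10 kb of 121 of the 389 summits. These peaks had a median of 25 tags. The other 268 had a median of 20.

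By fold enrichment, among peaks of 20 tags or more, the top 5 of the 389 had fewer tags. Cacna1s, the voltage sensor of excitation-contraction coupling, held one of 45.3-fold and 26 tags at chr1:137963215-137963604, 14060 bp past its start. Ppp1r13l had 43.3-fold at 22 tags, Dusp14 35.4-fold at 22 tags, Frem2 35.1-fold at 23 tags and Adamtsl2 31.5-fold at 35 tags. None of these 5 was among the 10 with the most tags. Among the genes with the most peaks were Itgb6, an epithelial integrin subunit, and Ccdc141, with 8 each over loci of 124 and 161 kb. Iffo1 and Tead4 had 6 each, on shorter loci of 16.5 and 76.5 kb. Myh3, Ablim3 and Abtb2 also had 6.

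Well-known muscle genes made up part of the set, and 75 of the 213 genes with a peak belonged to 11 lists of muscle, stress and signalling genes, which were chosen with results of these data known. Contractile genes had a peak in 26 of the 33 sarcomere genes that were rising and met the locus limits (78.8%), with 56 peaks of median 24.5 tags, beside 49.9% and 22 tags for all rising genes. Of the 4 sarcomere genes under the locus limits that were not rising, 2 had a peak. Another 25 rising sarcomere genes of the table were outside the locus limits. Myh3, the embryonic myosin heavy chain, stood at 111 FPKM in myoblasts and 2362 in myotubes. Its 6 peaks held 30, 31, 32, 17, 45 and 29 tags in genome order, with 2 inside the locus, and the second was 645 bp before the start. Myl1, a fast myosin light chain at 512 and 6696 FPKM, had 5 peaks of 12 to 37 tags. Flnc, the muscle filamin, had 22, 34 and 44 tags at levels of 96.0 and 314 FPKM. Mylpf, the fast regulatory light chain, at 1816 and 33258 FPKM, had 37, 31 and 29 tags, the last with its summit 121 bp inside the start and the others 2099 and 1049 bp before it. The 7 rising sarcomere genes without a peak were Actn2, Csrp3, Ldb3, Myh4, Myoz1, Synpo2l and Tpm2. Of these, Ldb3, Myoz1 and Synpo2l are on chromosome 14, where the whole list held 168 peaks, the fewest of chromosomes 1 to 19, against 277 to 900 on the others. Whether the list is complete for that chromosome is unknown.

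Excitation-contraction coupling and channel genes had a peak in 12 of 14 (85.7%), with 22 peaks of median 23.5 tags, as did 3 of 4 that were not rising. Tmem38a, the TRIC-A potassium channel of the sarcoplasmic reticulum, at 20.2 and 252 FPKM, held 19, 23, 34, 22 and 34 tags. Cacna1s, at 26.1 and 411 FPKM, held 33, 11, 18, 26 and 8. Casq2, a calsequestrin, at 41.7 and 777 FPKM, held 9 and 47, and Jsrp1, a protein of the junctional membrane, at 62.4 and 181 FPKM, held 46. The false discovery rate was 23.4% for the peak of 47 tags and 3.06% for that of 46. Fxyd1 and Pvalb had no peak. Muscle metabolism genes had a peak in 8 of 11 (72.7%), with 15 peaks of median 31 tags, against 2 of 8 that were not rising. Besides Adssl1, Acsl1 and Pygm these included Eno3, the muscle enolase, at 829 and 2162 FPKM with 28 and 31 tags. Cox7a1, Cox8b and Ppp1r3c had none.

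**Figure D5:**
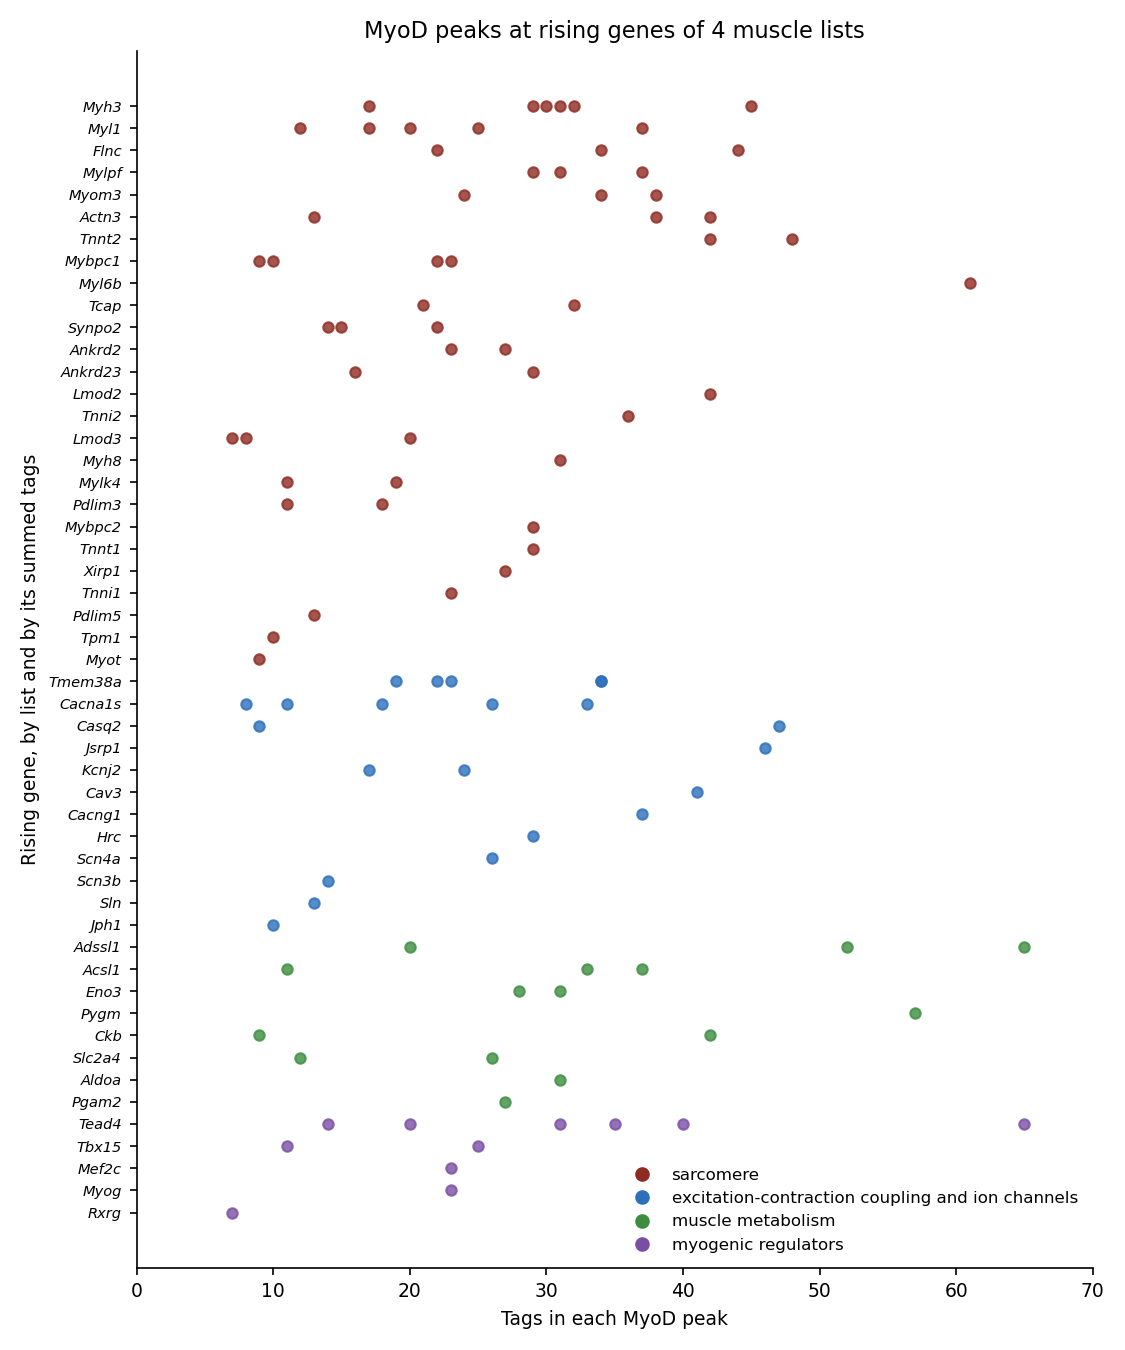
Tags of each MyoD peak (x axis; 1 point a peak) at the rising genes of 4 lists that had a peak (y axis, by list and then by summed tags). Points of one gene with equal tags coincide, as for Tmem38a at 34; Myl6b (61 tags), Adssl1 and Tead4 (65 each) held the peaks with the most tags.

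Myogenic regulators had a peak in 5 of 8, and so did 13 of the 20 on that list that met the locus limits and were not rising. Tead4 led them, as above. Myog, myogenin, at 130 and 1207 FPKM, had 1 peak of 23 tags, 4992 bp before its start. Mef2c, a partner of MyoD, at 15.4 and 221 FPKM, also had 1 peak of 23 tags, with the summit 84 bp inside the start, and Tbx15 had 25 and 11. Klf5, which is on chromosome 14, Myf6 and Vgll2 had none. Of the fusion and adhesion list, 2 genes were rising under the locus limits, and both had peaks: Tmem8c (myomaker), at 143 and 1913 FPKM, held 49 and 29 tags, and Gm7325 (myomixer), at 11.3 and 111 FPKM, held 22. Both peaks of Tmem8c also counted for Adamtsl2, a secreted matrix protein at 0.783 and 33.9 FPKM, and lay 9491 and 3594 bp before its start. Erbb3, a neuregulin receptor and the only rising neuromuscular gene under the locus limits, held 36, 19 and 30 tags at 3.51 and 36.7 FPKM, and 9 of 12 on its list that were not rising had a peak.

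Growth factor and signalling genes had a peak in 8 of 9, with 16 peaks of median 23 tags, against 8 of 19 that were not rising. Adamtsl2 held 49, 29, 19, 35 and 19 tags, the first 2 being the peaks shared with Tmem8c. Camk2b, a calmodulin-dependent kinase subunit, held 13, 26, 37 and 7 at 3.57 and 15.5 FPKM, Camk2a held 31, Wnt9a held 32 and 36, and Mstn, myostatin, had none. Stress response genes had a peak in 5 of 11 (45.5%), near the 49.9% of all rising genes. The small heat shock genes Hspb8 (31 and 44 tags), Hspb3 (35 and 26) and Hspb1 (23 and 16) had them, as did Chac1 with 20 and Asns with 9, while Atf3, Cryab, Dnajb9, Hspb2, Hspb7 and Trib3 had none. The list of ubiquitin ligases and protein turnover had a peak in 5 of 8, with a median of 16 tags. One of the 5 is Cmbl, a hydrolase that is no ubiquitin ligase, with 7 tags. The most tags in this list were at Kbtbd10 (27, 16 and 20) and Klhl31 (33). Among genes of cell cycle exit, Cdkn1a, the p21 inhibitor, at 470 and 2374 FPKM, had 1 peak of 40 tags 4526 bp past its start. That peak had a fold enrichment of 4.67 and a false discovery rate of 23.8%. Sesn1 had a peak of 15 tags, and Cdkn1c had none.

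Markers of the labelled cell types were present. The 7 myotube markers summed to 1498 FPKM in myoblasts and 25768 in myotubes. The 4 markers of myoblasts and satellite cells summed to 1538 and 3100 FPKM, the higher sum being in myotubes. Of these, Des stood at 539 and 2785 FPKM, while Pax7 stood at 48.5 and 6.71, Myf5 at 55.4 and 14.4 and Myod1 at 895 and 293. The 5 fibroblast, 4 adipocyte, 4 endothelial and 4 Schwann or neural markers each summed to at most 4.71 FPKM in either condition, with Lum, Tcf21 and Plin1 at 0 in both. The 3 immune markers in the table summed to 31.6 and 27.1, and the 4 smooth muscle and pericyte markers to 75.5 and 9.74. The part of other cells in the rises was not tested.

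Among rising genes with a peak, the ratio was highest for AC154311.1, a locus of 73 bp with 165 FPKM in myotubes, listed at 0 in myoblasts, with 1 peak of 9 tags. It was followed by Fgf21, a stress-induced hormone, at 12.7 and 324 FPKM with 17 tags 1068 bp before its start, then Myh3 and Tcap. Tcap, the titin cap, at 11.0 and 251 FPKM, held 32 and 21 tags. Chi3l1, Myh8 (31 tags), Adamtsl2, Tnni2 (36 tags), Mylpf and Casq2 completed the first 10. The other 214 rising genes had no peak under the rule. The 5 with the highest ratios were Trdj1, Mir5115, AC132471.1, Mir5130 and 5S_rRNA, with loci of 52 to 133 bp and 0 FPKM in myoblasts. Of 25 rising loci under 300 bp, 4 had a peak. Actn2, the sarcomeric alpha-actinin, at 40.7 and 903 FPKM, and Myh4, a fast myosin at 4.02 and 90.6 FPKM, had the highest ratios without a peak among loci of 300 bp or more, and were singled out after their values were seen. Histone genes gave 24 rising genes, of which 2 had a peak, a count also made after their values were seen. The 2 genes, Hist1h2bc and Hist1h4c, shared the same peak of 18 tags. Beside this count, 49.9% of all rising genes and 26.2% of rising genes with loci up to 5 kb had a peak. By chromosome, 1, 2 and 11 held 39 of the 389 peaks each, and chromosome 14 held 3. On chromosome 14, with its few peaks in the list as a whole, 2 of 14 rising genes had a peak. Without that chromosome the share of rising genes with a peak was 51.1%, an alternative chosen after seeing the data.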

How the data were processed

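Of 7 samples, 3 were used: RNA of empty-vector myoblasts, RNA of empty-vector myotubes and the MyoD ChIP of 2-day myotubes. The authors deposited FPKM values with their own p-values and q-values in a Cuffdiff gene table of 37975 genes, held in 2 identical copies. CASAVA 1.7.0, Cuffdiff and mm9 are named per the submitters' processing notes. The sources used here give no aligner, annotation or Cuffdiff version. Peaks were called with MACS 1.3.7 at a p-value limit of 1.00e-05 on 8637045 ChIP tags (4049890 unique) against 9129012 control tags (4371189 unique), per the file headers. What the control was, and how the stated duplicates were combined, those sources do not say. For each peak the authors deposited a tag count, a ratio (fold enrichment), a score (the −log10 of the p-value times 10) and a false discovery rate in percent. All of these are the authors' values.

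Summits were joined to loci and shares were given exact Clopper-Pearson intervals at 95% (Python 3.11.15, numpy 2.4.6, pandas 2.3.3, scipy 1.17.1). The join and interval steps were tested on simulated data. Depth behind FPKM is unknown, and PCR tags are not independent molecules, so intervals cover counting error only. Strand and promoters came from RefSeq tables of GRCm38.p6 by symbol. Motifs of the MEF2 and CArG boxes were CTA, 4 A or T, TAG and CC, 6 A or T, GG.

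Named were the 10 peaks with most tags, the 5 of highest fold enrichment at 20 tags or more, the 3 genes on each side of both limits, the 5 genes with most peaks, the 10 of largest ratio with a peak and 5 without, up to 4 genes per list by tags, and up to 8 start-peak promoters. Some items that this rule takes in are not reported here. The peaks and lists were chosen with earlier results of these data known. Alternatives are in the closing section.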

Additional observations from a re-analysis of the deposited data

How the results depend on the processing

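Of 117 values recomputed under 17 alternatives (14 planned, 3 chosen after seeing the data), 92 moved little and 25 moved. A count moved little if it stayed within 1.5-fold, and a share or median if it stayed inside the interval of the reported value. Counts that moved little by this rule still ran from 268 to 507 peaks (389 as reported) and from 148 to 307 genes (213 as reported). In all 17 alternatives, the share of genes with a peak and the median tags were higher at rising than at unchanged genes. Without an FPKM minimum, however, the unchanged genes took in silent ones and had a share of 13.5%, so nothing is read from that comparison. Changes of the ratio limit left the unchanged genes as they were, at 32.1% and 16 tags. The number of peaks was 248 at a ratio of at least 4, 236 with the summit inside the locus only, 720 with a window of 50 kb, 88 with peaks of a false discovery rate of at most 5% only, and 765 with loci of any number of rows. The number of rising genes with a peak was 131 at a ratio of 4, 133 inside only, 76 at that false discovery rate and 408 with loci of any number of rows. The share of rising genes with a peak was 55.4% at a minimum of 20 FPKM, 31.1% inside only and 71.9% at 50 kb. It was 17.8% at that false discovery rate, 39.8% with peaks of at least 15 tags and 56.4% with loci of any number of rows. Counting only summits with no other row at 1 FPKM or more near them, it was 34.7% (unchanged genes 22.6%). There, rows of the gene's own class under the locus limits did not count as other rows. Median tags were 19 at 50 kb, 31.5 at that false discovery rate and 27 with at least 15 tags, and median fold enrichment was 18.7 and 11.8 under the latter 2. The share of peaks at a false discovery rate of at most 5% was 28.3% with at least 15 tags. The share of summits inside the locus was 29.6% at 50 kb, 68.2% with loci of any number of rows and 71.8% with no such row near the summit. These alternatives change which peaks or genes are counted. No paired analysis was possible because each group held 1 sample and no result comes from a test. With 1 MyoD library, whether another culture would give the same peaks cannot be said, and peaks of 7 to 10 tags are the ones nearest the limit of this depth.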
